A study of Mus musculus with 2 samples.

Results

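The 9 genes described here carry or hold calcium in the myofiber: the calcium pumps of the sarcoplasmic reticulum Atp2a1 and Atp2a2, their small membrane regulators Sln and Pln, the cytosolic buffer Pvalb, the calcium-binding proteins of the reticulum lumen Casq1, Casq2 and Hrc, and the release-channel partner Sri. They were chosen by name, and all 9 were among the 35163 gene rows of the table. The study isolated single whole myofibers and myofiber fragments of the flexor digitorum brevis, a short foot muscle, from 1 untreated C57BL/6J mouse over 3 months of age, and sequenced them with mcSCRB-seq, a plate-based method that counts each captured RNA molecule once by its unique molecular identifier (UMI). Of 763 cells, 171 passed the study's filters, a minimum above 5000 genes per cell and a mitochondrial share of counts under 20%. Each of these was assigned to a class by the largest of Myh1, Myh2, Myh4, Myh7 and Myh8, the myosin heavy chain genes, which gave 117 fast 2X (Myh1), 51 fast 2A (Myh2), 2 slow (Myh7) and 1 fast 2B (Myh4) myofibers. All classes came from the same mouse without any treatment, so that a class is a part of 1 sample, and neither p-values nor standard errors were computed across myofibers.

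A contraction begins when calcium leaves the sarcoplasmic reticulum through the ryanodine receptor, and it ends when the SERCA pumps return calcium to the reticulum. Atp2a1 encodes SERCA1, the pump of fast fibers, and Atp2a2 encodes SERCA2, the pump of slow fibers and heart. Parvalbumin, the product of Pvalb, binds calcium in the cytosol and is known for the quick relaxation of the fastest fibers. Inside the reticulum calsequestrin holds calcium near the release site, as the skeletal form from Casq1 and the cardiac and slow form from Casq2.

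The 171 myofibers held 51923865 UMI counts in all and between 28827 and 1542996 each, with a median of 255726 in fast 2X and 206510 in fast 2A myofibers. Their mitochondrial share had a median of 5.01% in fast 2X and 6.96% in fast 2A. All 763 barcodes were distinct. Of the 171 cells, 168 were labeled whole myofibers and 3 were labeled fragments, and all are called myofibers here. The myofiber markers Acta1, Ckm, Ttn, Des and Mylpf had counts in all 171 cells. A total of 25 markers of 6 other cell types (smooth muscle and pericyte, endothelium, fibroblast, satellite cell, Schwann cell and immune) were summed in each cell, and 9 cells stood apart with 1015 to 14850 CPM (UMI counts of a gene or list scaled to a common total of 1000000), against 35.7 to 574 CPM in the other 162. Of these 9 cells, 7 were fast 2X, 1 was fast 2A and 1 was the fast 2B cell. Some results are given with and without them, and all others include them. The fast 2B cell, the only one of its class, held 3233 CPM of these markers. Its 5 myofiber markers summed to 32367 CPM, against a median of 106699 CPM over the 171 cells.

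Levels are given as the CPM of the counts summed over a class. The 95% limits are Poisson limits for a level, conditional binomial limits for a ratio of levels, Woolf limits for a ratio of pair ratios and Clopper-Pearson limits for a share of counts, and they account for counting error alone. A gene was counted as higher or lower past a fold of 1.5, if it had at least 500 counts over both classes. Of 8649 such genes, 2.57% were higher and 7.31% were lower in fast 2A than in fast 2X myofibers, so that 9.87% passed the fold in either direction. Of those that passed, 26.0% were higher, and with TMM factors in place of totals, which moved the median log2 ratio of all genes from -0.09 to 0.02, 49.3% were higher. Of the 9 genes, 6 had enough counts, and 5 of these 6 passed the fold. Pvalb, Casq1 and Atp2a1 were lower in fast 2A, Atp2a2 and Casq2 were higher, and Hrc was within the fold. Without the myofibers in which Myh7 made up at least 10% of the 5 myosin genes, described with Atp2a2, 4 passed, as Atp2a2 did not. Of all genes 8.79% passed in that setting. The log2 ratios of the 6 had a median of -0.37, against -0.09 for all 8649 genes.

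The most abundant of the 9 was Pvalb, at 5296 CPM over the 171 myofibers, followed by Atp2a1 at 2964, Casq1 at 1307 and Hrc at 602 CPM. The other 5 were far lower, with 35.1 CPM of Atp2a2, 14.4 of Casq2, 6.34 of Sln, 4.89 of Sri and 0.289 of Pln. Per kilobase of the longest annotated transcript the order of the 9 was identical, and the distance from Pvalb to Atp2a1 was greater, with 5420 against 852 CPM per kilobase.

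Atp2a1 lies on the minus strand at chr7:126445858-126463108 in GRCm38 and has 23 exons. It had 3301 CPM in fast 2X myofibers (95% limits 3283 to 3319) and 1998 CPM in fast 2A myofibers (limits 1973 to 2023), which was a log2 ratio of -0.72 (limits -0.74 to -0.70). Without the quality filters 105 fast 2A and 426 fast 2X cells had at least 50 counts of the 5 myosin genes. In them the log2 ratio was -0.56, within the fold of 1.5. Single fast 2X myofibers ranged from 192 to 6988 CPM with a median of 3104. Single fast 2A myofibers ranged from 572 to 3779 CPM with a median of 2112. The classes overlapped widely, since 35 of 117 fast 2X myofibers lay above the highest fast 2A myofiber, and 4 of 51 fast 2A myofibers lay above the fast 2X median. Slow myofibers had 596 and 1065 CPM, and the fast 2B cell, with 3233 CPM of other cell markers, had 778 CPM. Plates were told apart by the library index of each cell, with each index taken as 1 plate. Atp2a1 was lower in fast 2A on 8 of 8 plates, by log2 ratios of -1.10 to -0.47, and each plate held between 2 and 10 fast 2A myofibers.

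The low end of Atp2a1 in fast 2X was made up of 5 myofibers under 500 CPM, a limit set after the values were seen. All 5 were among the 7 fast 2X cells over 1000 CPM of other cell markers, and 1 of the 5 was labeled a fragment. Without those 7 cells the lowest fast 2X myofiber had 1538 CPM, and the log2 ratio of Atp2a1 was -0.74. The cell with the most marker counts, at 14850 CPM, held 10738 CPM of smooth muscle and pericyte markers and 330 CPM of Atp2a1. Another held 3008 CPM of Schwann cell markers, with 224 CPM of Atp2a1. What part other cells had in these low values was not tested.

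**Figure D1:**
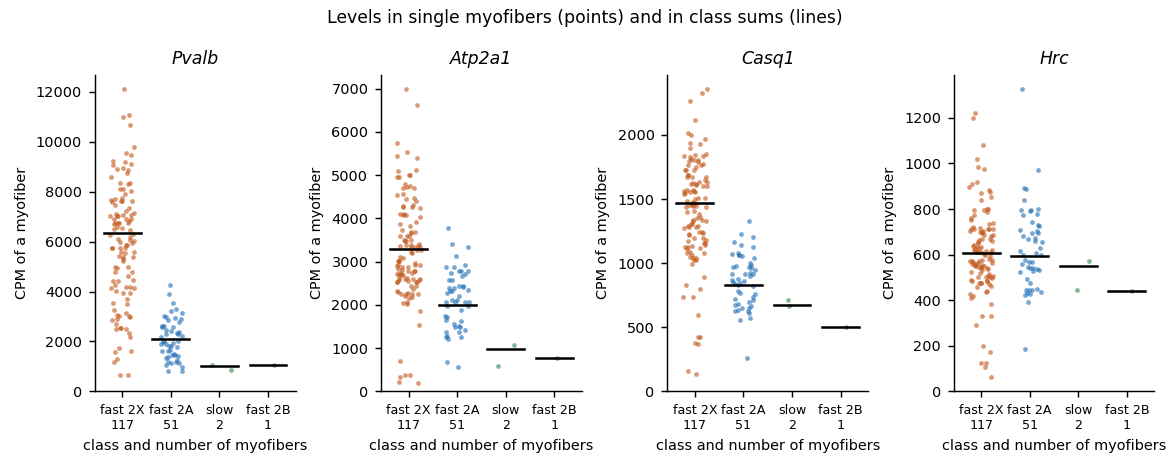
CPM of Pvalb, Atp2a1, Casq1 and Hrc in single myofibers of the 4 classes, with 1 point for each myofiber, and the CPM of the class sum as a black line. Pvalb had 6360 CPM in the fast 2X sum and 2091 CPM in fast 2A, while the lines of Hrc lay at 605 and 595 CPM.

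Atp2a2 lies on the minus strand at chr5:122453513-122502225. It had 787 counts or 20.1 CPM in fast 2X (limits 18.7 to 21.5) and 551 counts or 46.3 CPM in fast 2A (limits 42.5 to 50.3), a log2 ratio of 1.20 (limits 1.04 to 1.36). The 2 slow myofibers had 789 and 845 CPM, far above every fast 2A myofiber, the highest of which had 215 CPM. At least 1 count was found in 93 of 117 fast 2X myofibers (79.5%) and in 47 of 51 fast 2A myofibers (92.2%). Once each myofiber was thinned to 28827 counts, these shares were 32.5% and 52.9%. Atp2a2 was higher in fast 2A on 7 of 8 plates, by log2 ratios of 0.77 to 2.09, and lower on the plate with the fewest fast 2A myofibers, 2, at -1.30 (limits -2.77 to -0.15). Empty wells were not analysed here, so the share that free RNA gives is unknown.

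Of the counts of both pumps together, Atp2a2 made up 0.605% in fast 2X (limits 0.563 to 0.648), 2.26% in fast 2A (limits 2.08 to 2.46) and 44.8% in the slow myofibers (limits 41.8 to 47.9). The Atp2a1 to Atp2a2 ratio was thus 3.81-fold higher in fast 2X than in fast 2A, a log2 ratio of -1.93 for fast 2A over fast 2X (limits -2.09 to -1.77). From the mean share over cells, where each cell has equal weight, it was -0.60, and -2.14 when the cells over 1000 CPM of other cell markers were left out. Per myofiber the share of Atp2a2 had a median of 0.467% in fast 2X and 1.17% in fast 2A, and it was 42.6% and 58.6% in the slow myofibers. The slow myofibers thus held counts of both pumps in quantity, and in 1 of them Atp2a1 still had more counts than Atp2a2. The coding sequences of both pumps were identical at 75.3% of aligned bases, but no stretch of 66 bases was shared between their annotated transcripts. Rabep2 lies on the opposite strand of Atp2a1 and shares 16.5% of its 66-base stretches. Rabep2 had 235 CPM, and the strand setting of the counting was not given in the sources used here.

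The size of the Atp2a2 difference rested in large part on few fast 2A myofibers. Myh7 made up at least 10% of the 5 myosin genes in 8 myofibers, namely both slow myofibers and 6 fast 2A myofibers, in which Myh7 ranged from 11.2% to 43.2%. These 6 held 18.4% of all fast 2A counts but 278 of the 551 Atp2a2 counts, or 50.5%. In them Atp2a2 made up 9.02% of the pair (limits 8.03 to 10.1), against 1.28% (limits 1.14 to 1.44) in the other 45 fast 2A myofibers. Without the 6, Atp2a2 had 28.1 CPM in fast 2A, and the log2 ratio to fast 2X was 0.48 (limits 0.28 to 0.68), which no longer passed the fold of 1.5. The log2 ratio of the Atp2a1 to Atp2a2 ratio was then -1.10, and the median share of Atp2a2 in these 45 myofibers was 0.984%, still above the fast 2X median of 0.467%.

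Among the 6 fast 2A myofibers with at least 10% Myh7, the Atp2a2 share was mostly higher where the Myh7 share was higher, though not in strict order. It was 20.9% in the fast 2A myofiber with 43.2% Myh7, 11.8% with 24.1%, 14.3% with 16.1%, 6.06% with 15.4%, 3.44% with 12.2% and 4.45% with 11.2%. Over all 8 myofibers with at least 10% Myh7 the median was 13.1%, and over the other 163 it was 0.552%. An Atp2a2 share over 10% was found in 5 of the 8 and in 6 of the 163. Of these last 6, 5 were fast 2X and all 5 were among the cells with over 1000 CPM of other cell markers, and without those cells the highest share in fast 2X was 4.39%. The sixth was the fast 2A cell with 3434 CPM of such markers, where 4 of 35 pump counts came from Atp2a2. Whether that Atp2a2 came from the myofiber was not tested.

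**Figure D2:**
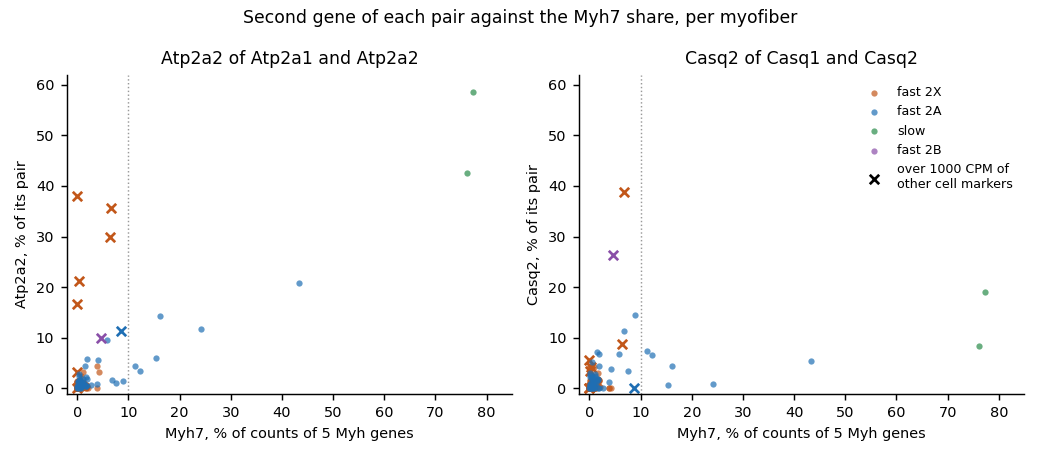
Share of Atp2a2 in the counts of Atp2a1 and Atp2a2 (left) and share of Casq2 in the counts of Casq1 and Casq2 (right) against the Myh7 share of the 5 myosin genes, with 1 point per myofiber and crosses for cells over 1000 CPM of other cell markers. The 2 slow myofibers lay at 42.6% and 58.6% Atp2a2, and the fast 2X cells over 10% were all crosses.

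Sln and Pln encode sarcolipin and phospholamban, small membrane peptides that bind the SERCA pumps and lower their affinity for calcium. Their coding sequences are shown to make plain how short these regulators are, and the capitals mark the start and stop codons. The sequence of Sln covers 96 bases and that of Pln covers 159 bases, both read from the GENCODE transcripts of GRCm38.
Sln: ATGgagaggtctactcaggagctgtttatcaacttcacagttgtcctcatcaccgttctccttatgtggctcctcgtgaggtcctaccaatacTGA
Pln: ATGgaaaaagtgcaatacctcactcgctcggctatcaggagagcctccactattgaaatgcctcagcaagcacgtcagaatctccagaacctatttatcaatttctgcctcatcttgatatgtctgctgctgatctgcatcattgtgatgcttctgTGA

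Sln, at chr9:53850164-53854560 on the plus strand, was scarce, with 329 counts over the 171 myofibers, and it had too few counts to enter the tally of genes past the fold. It had 3.32 CPM in fast 2X (limits 2.77 to 3.94) and 8.99 CPM in fast 2A (limits 7.36 to 10.9). In the slow myofibers there were 56.4 and 109 CPM. The highest myofiber was the fast 2B cell, with 54 counts or 210 CPM, and this cell also held 2043 CPM of fibroblast markers and 623 CPM of Schwann cell markers. Sln had a count in 7 of the 8 myofibers with at least 10% Myh7 and in 61 of the other 163. As with Atp2a2, the 6 fast 2A myofibers with Myh7 held a large part, 58.9% of the fast 2A counts of Sln. Without them the log2 ratio to fast 2X was 0.45 (limits -0.08 to 0.95), compared with 1.44 (limits 1.05 to 1.82) with them.

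Pln, at chr10:53337667-53345987 on the plus strand, was close to undetected, with 15 counts in 11 of 171 myofibers. No count was found in the 2 slow myofibers, and a count of 0, taken to allow up to 3 counts in their sum, allows up to 5.18 CPM. Of the 66-base stretches of Pln transcripts, 53.9% also occur in 2 genes on the opposite strand, Cep85l and Gm47644, so that even these counts are uncertain. Fast 2A had 7 counts in 3 myofibers and fast 2X had 8 counts in 8, a log2 ratio of 1.53 with limits from -0.17 to 3.18. On lane 2 it was 2.57 (limits 0.70 to 4.57), from 7 and 5 counts, while on lane 1 no count was found in fast 2A and 3 in fast 2X, so at this depth no difference was read from it.

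Pvalb showed the greatest difference between the fast classes. Pvalb lies on the minus strand at chr15:78191114-78206400 and has 4 exons. It had 6360 CPM in fast 2X (limits 6336 to 6386) and 2091 CPM in fast 2A (limits 2065 to 2117), so that it was 3.04-fold higher in fast 2X, a log2 ratio of -1.61 (limits -1.62 to -1.59). Of the 8649 genes, 0.370% had a lower log2 ratio. Single fast 2X myofibers ranged from 659 to 12110 CPM with a median of 6016. Without the 7 cells over 1000 CPM of other cell markers the lowest had 1741 CPM. Single fast 2A myofibers ranged from 809 to 4267 CPM with a median of 2021. None of the 51 fast 2A myofibers reached the fast 2X median, and 84 of the 117 fast 2X myofibers lay above the highest fast 2A myofiber. The 2 slow myofibers had 865 and 1071 CPM, and the fast 2B cell, with 3233 CPM of other cell markers, had 1058 CPM. Pvalb counts were found in every one of the 171 myofibers. The share of these counts that free RNA gives is unknown.

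On 8 of 8 plates Pvalb was lower in fast 2A, by log2 ratios of -2.10 to -1.30. The log2 ratio was -1.72 on lane 1, with 27 fast 2A and 59 fast 2X myofibers, and -1.43 on lane 2, with 24 and 58. It was -1.63 without the cells over 1000 CPM of other cell markers and -1.50 without the myofibers with at least 10% Myh7.

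**Figure D3:**
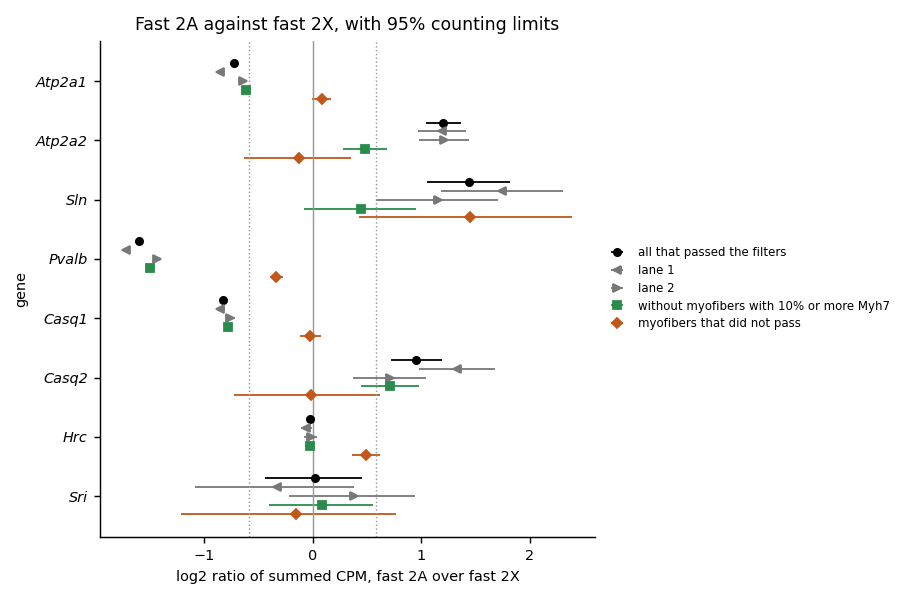
Log2 ratio of summed CPM, fast 2A over fast 2X, for 8 genes with 95% counting limits, in all myofibers that passed the filters, on each lane, without the myofibers with at least 10% Myh7, and in myofibers that did not pass. Dotted lines mark a fold of 1.5, and Pln is left out for its 15 counts. Pvalb lay at -1.61 in the passing myofibers and at -0.34 in those that did not pass, with mitochondrial counts in the totals.

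Casq1, at chr1:172209894-172219868 on the minus strand, differed in the same direction as Pvalb and by less. It had 1467 CPM in fast 2X (limits 1455 to 1479) and 827 CPM in fast 2A (limits 811 to 844), a log2 ratio of -0.83 (limits -0.86 to -0.80). Single fast 2X myofibers ranged from 139 to 2359 CPM with a median of 1446, and single fast 2A myofibers ranged from 258 to 1329 CPM with a median of 870. Without the cells over 1000 CPM of other cell markers the lowest fast 2X and fast 2A myofibers had 593 and 559 CPM. None of the 51 fast 2A myofibers lay above the fast 2X median. The slow class had 666 and 716 CPM, which was within the range of fast 2A. The direction was the same on 8 of 8 plates, with log2 ratios of -1.08 to -0.43.

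Casq2, at chr3:102086415-102146514 on the plus strand, had 412 counts or 10.5 CPM in fast 2X (limits 9.52 to 11.6) and 243 counts or 20.4 CPM in fast 2A (limits 17.9 to 23.1). The log2 ratio was 0.96 (limits 0.72 to 1.19). Casq2 had a positive ratio on 7 of 8 plates, between 0.32 and 2.32, and -0.46 (limits -1.68 to 0.59) on the other, from 9 and 46 counts. The 2 slow myofibers had 60.6 and 169 CPM, and the fast 2B cell, with 3233 CPM of other cell markers, had 179 CPM. Casq2 made up 0.712% of the calsequestrin counts in fast 2X (limits 0.645 to 0.783), 2.41% in fast 2A (limits 2.12 to 2.73) and 10.5% in the slow myofibers (limits 7.81 to 13.8). The log2 ratio of the Casq1 to Casq2 ratio was -1.78 for fast 2A over fast 2X (limits -2.01 to -1.55). In contrast to the pumps, the skeletal form thus stayed well ahead of the cardiac form in the slow myofibers, where Casq2 made up 8.33% and 19.1%.

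The 6 fast 2A myofibers with Myh7 held 30.9% of the fast 2A counts of Casq2, and without them the log2 ratio of Casq2 was 0.72 (limits 0.45 to 0.98), which still passed the fold. Of the 168 fast 2A counts then left, 23 came from 1 myofiber with 6.85% Myh7 and 15 from 1 with 8.90% Myh7. The ratio without these was not computed, so the pass may rest on few myofibers. The coding sequences of Casq1 and Casq2 were identical at 69.1% of aligned bases, and no stretch of 66 bases was shared. In fast 2X the single myofiber with a Casq2 share over 10% held 38.7%, from 12 of 31 counts, and it was the cell with 3008 CPM of Schwann cell markers. Without the cells over 1000 CPM of other cell markers the highest share in fast 2X was 4.35%.

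As Atp2a2 and Casq2 are also expressed in heart, 6 cardiac markers were summed. They had 165 CPM in fast 2X, 267 CPM in fast 2A and 1662 CPM in the slow myofibers. The fast 2B cell, with 3233 CPM of other cell markers, had 1226 CPM of the cardiac markers. Most of the slow value came from Myh6, with 1408 CPM, against 108 in fast 2A and 12.4 in fast 2X. Myh6 neighbors Myh7 and resembles it in sequence, and whether reads of Myh7 were counted as Myh6 was not tested. Tnnt2, the cardiac troponin T, had 164 CPM in the slow myofibers, 78.9 in fast 2A and 64.5 in fast 2X, and Ryr2, the cardiac ryanodine receptor, had 75.9, 70.1 and 79.6 CPM in the same order. Actc1 had 10.4 CPM in the slow myofibers and Tnni3 had 3.45, from 6 and 2 counts, and Nppa was at 0.

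Hrc, at chr7:45335290-45338974 on the plus strand, encodes the histidine-rich calcium-binding protein of the reticulum lumen, which binds triadin. It differed little between the classes, with 605 CPM in fast 2X (limits 598 to 613) and 595 CPM in fast 2A (limits 581 to 609). The log2 ratio of -0.02 had limits of -0.06 to 0.01. The slow class had 447 and 570 CPM, within the range of both fast classes. By plate the log2 ratio lay between -0.43 and 0.41, lower in fast 2A on 7 plates and higher on 1.

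Sri, at chr5:8046078-8069379 on the plus strand, encodes sorcin, a calcium-binding protein known to bind the ryanodine receptor. It had 4.65 CPM in fast 2X (limits 3.99 to 5.37) and 4.70 CPM in fast 2A (limits 3.55 to 6.11), with a log2 ratio of 0.02 (limits -0.44 to 0.46). As the mean over cells the log2 ratio was -0.98, and 0.11 when the cells over 1000 CPM of other cell markers were also left out. A pair of fast 2A myofibers, neither of them among those cells, held 26 of the 56 fast 2A counts. In fast 2X it had 31.7 CPM in the 7 cells over 1000 CPM of other cell markers and 3.79 CPM in the other 110. Whether those Sri counts came from other cells was not tested.

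The myosin genes set the classes, but many myofibers held both Myh1 and Myh2, so the levels were also followed along the Myh2 share of these 2 genes. Pvalb was lower at each higher step of this share. Its median was 7065 CPM in 48 myofibers under 20% Myh2, 6498 CPM in 32 from 20% to 30%, 3259 CPM in 37 from 30% to 50%, 2473 CPM in 27 from 50% to 75% and 1558 CPM in 24 from 75%. The decline thus ran within the fast 2X class as well as across the border between the classes. Across the 117 fast 2X myofibers the Spearman correlation of Pvalb with the Myh2 share was -0.66, and across the 51 fast 2A myofibers it was -0.62. Median counts of these 5 groups were 330043, 248370, 120365, 231523 and 155978, and their median mitochondrial shares were 4.31%, 5.13%, 8.17%, 6.31% and 7.47%, so that depth and mitochondrial share also differed among the groups. Their part in the decline was not tested.

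Casq1 had medians of 1586, 1558, 1081, 870 and 888 CPM in the same 5 groups. It was lower with more Myh2 in the fast 2X class, where the correlation was -0.56, but not in the fast 2A class, where it was -0.03. Atp2a1 had medians of 3636, 3301, 2529, 2398 and 1738 CPM, with correlations of -0.44 and -0.28. Hrc had medians between 577 and 639 CPM in all 5 groups, and its correlations were -0.02 and 0.02. The Atp2a2 share of the pump counts was 0.493%, 0.656%, 0.932%, 1.42% and 3.51% in the sums of the 5 groups, and these sums rested in part on cells that stood apart. Without the cells over 1000 CPM of other cell markers and those with at least 10% Myh7 it was 0.493%, 0.472%, 0.739%, 1.09% and 1.61%, so that the first 2 groups had overlapping limits (0.444 to 0.545 and 0.400 to 0.554) and the rise began above 30% Myh2. The Casq2 share of the calsequestrin counts was 0.527%, 0.875%, 1.18%, 1.29% and 3.81%, and 0.527%, 0.713%, 0.947%, 1.31% and 3.19% without those cells.

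**Figure D4:**
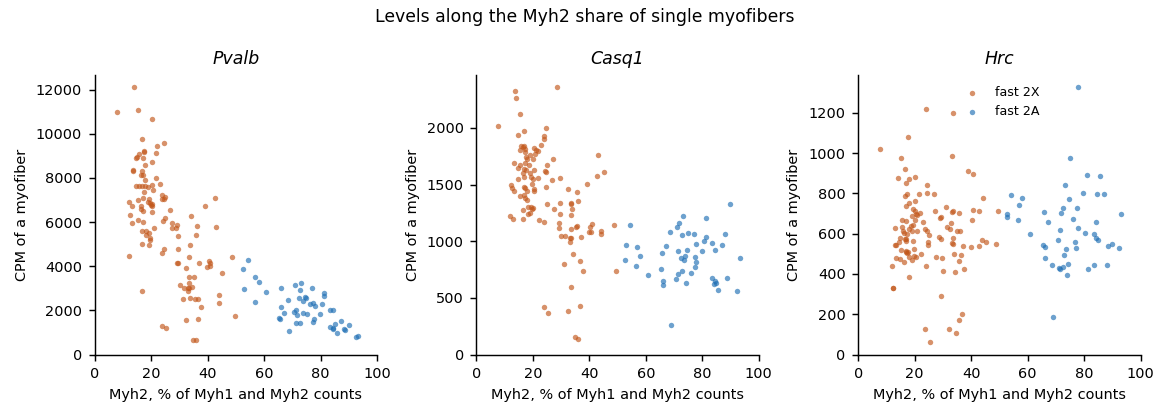
CPM of Pvalb, Casq1 and Hrc in each of the 168 fast 2X and fast 2A myofibers against the share of Myh2 in the counts of Myh1 and Myh2. Pvalb declined from a median of 7065 CPM under 20% Myh2 to 1558 CPM from 75%, Casq1 reached its low level near 50%, and Hrc showed no such decline.

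Pvalb and Casq1 varied together across the myofibers. Over the 168 fast 2X and fast 2A myofibers, which share library preparation and depth effects, the Spearman correlation of their CPM was 0.87. It was 0.78 within fast 2X and 0.36 within fast 2A. Pvalb and Atp2a1 had a correlation of 0.64 over the 168, of 0.47 within fast 2X and of 0.12 within fast 2A. Without the cells over 1000 CPM of other cell markers the correlation of Pvalb and Casq1 was 0.86 over 160 myofibers. Of 1385 genes with at least 5000 counts, the 3 most like Pvalb were Actn3, the fast-fiber alpha-actinin of the Z-disc, with 0.88, Mss51 with 0.88 and Casq1 itself. The 3 most like Casq1 were Pvalb, Actn3 with 0.83 and Mss51 with 0.82.

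The genes most like Atp2a1 were others. Myh8, the perinatal myosin heavy chain, had a correlation of 0.81, Myoz1, a Z-disc protein that binds calcineurin, had 0.75, and the processed pseudogene Gm11814 had 0.73. For Hrc no gene came close, and the nearest were Fsd2 with 0.42, Ryr1, the calcium release channel, with 0.41 and Yjefn3 with 0.39.

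**Figure D5:**
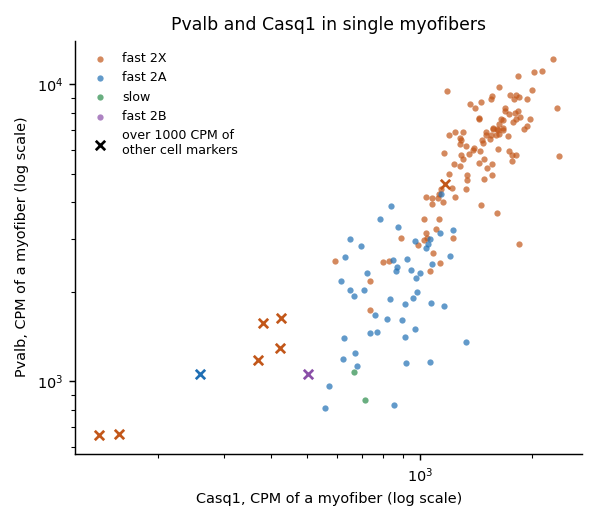
CPM of Pvalb against CPM of Casq1 in the 171 myofibers, both on log scales, with 1 point per myofiber colored by class and crosses for cells over 1000 CPM of other cell markers. Within fast 2X the Spearman correlation was 0.78, and most of the crosses lay at the low end of both genes.

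The 250 bases before the RefSeq start site (GRCm38.p6) are shown for the 3 genes that were lower in fast 2A, and for Casq2, which was higher, so that their starts can be set side by side. Of the 9 genes, 7 had a promoter entry, and for Pvalb the entry at the 5′ end of the annotated gene is shown. Capitals mark matches to the E-box, CANNTG, or to the MEF2 motif, both searched on both strands. MEF3, TCAGGTT, and the SRF CArG box were searched as well. No matches overlapped in these 4 sequences. Pvalb is chr15:78206401-78206650 on the minus strand, Casq1 is chr1:172219896-172220145 on the minus strand, Atp2a1 is chr7:126463074-126463323 on the minus strand and Casq2 is chr3:102086165-102086414 on the plus strand.
Pvalb: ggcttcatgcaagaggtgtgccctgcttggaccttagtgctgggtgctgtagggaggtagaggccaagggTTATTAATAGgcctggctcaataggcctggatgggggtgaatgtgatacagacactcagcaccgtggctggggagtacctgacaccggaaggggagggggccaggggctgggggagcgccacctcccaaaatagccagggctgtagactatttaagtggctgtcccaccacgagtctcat
Casq1: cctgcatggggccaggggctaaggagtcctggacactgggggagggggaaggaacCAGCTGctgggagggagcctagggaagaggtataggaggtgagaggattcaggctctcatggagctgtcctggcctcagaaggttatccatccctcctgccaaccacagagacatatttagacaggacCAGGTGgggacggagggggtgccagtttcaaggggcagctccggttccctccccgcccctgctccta
Atp2a1: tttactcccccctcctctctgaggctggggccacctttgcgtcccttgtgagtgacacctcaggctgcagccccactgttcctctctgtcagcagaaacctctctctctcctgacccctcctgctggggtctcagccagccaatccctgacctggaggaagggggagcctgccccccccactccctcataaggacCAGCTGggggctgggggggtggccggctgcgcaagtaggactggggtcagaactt
Casq2: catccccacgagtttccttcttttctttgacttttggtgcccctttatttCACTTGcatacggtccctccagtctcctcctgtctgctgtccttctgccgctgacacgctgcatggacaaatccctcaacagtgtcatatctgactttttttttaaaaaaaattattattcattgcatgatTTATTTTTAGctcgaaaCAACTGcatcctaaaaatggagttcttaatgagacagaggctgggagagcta

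The Pvalb sequence held 1 MEF2 match, from 180 to 171 bases before the start site, and no E-box. The other Pvalb entry, chr15:78204238-78204487, is not shown and held 1 E-box and no MEF2 match. Casq1 held 2 E-boxes, Atp2a1 held 1, and Casq2 held 2 E-boxes and 1 MEF2 match. An E-box is found in 66.2% and a MEF2 match in 2.92% of 32851 such sequences of the same length. MEF3, found in 3.49%, and the CArG box, found in 1.47%, had no match in the 4. These matches are a description of letters, and no binding was measured.

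Among 36 other calcium-handling genes listed by role, 34 had enough counts. In fast 2A 1 of the 34 was higher and 7 were lower, against 2.57% higher and 7.31% lower of all 8649 genes. The other 26 were within the fold. The median log2 ratio of the 34 was -0.17, against -0.09 for all genes. The higher gene was Tnnc1, the slow and cardiac troponin C, with 2218 CPM in fast 2A and 399 CPM in fast 2X, a log2 ratio of 2.48. Of 9 genes of calcium release and its coupling, 3 were lower, against 7.31% of all genes. These were Ryr3, a minor ryanodine receptor, with a log2 ratio of -1.33, Cacng1, a subunit of the voltage sensor, with -0.75, and Jph1, which joins the reticulum to the T-tubule, with -0.68. Ryr1, the main release channel, was within the fold, with 4415 CPM in fast 2A and 4747 CPM in fast 2X.

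Among the cytosolic calcium-binding genes the calmodulin gene Calm3 was lower, with a log2 ratio of -0.63, while Calm2 had 0.28. Of 11 genes of surface and mitochondrial transport, Slc8a1, a sodium-calcium exchanger, and Atp2b3, a pump of the surface membrane, were lower, with -0.95 and -0.66. None of 7 genes of the reticulum lumen and junction passed the fold. Among them Trdn, which encodes triadin, had -0.52. Of the relatives and regulators of the pumps, Mrln, which encodes the SERCA inhibitor myoregulin, had 88.1 CPM in fast 2A and 132 CPM in fast 2X, a log2 ratio of -0.58 that lay just within the fold.

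Of the 592 cells that did not pass, 309 fast 2X and 54 fast 2A cells had at least 50 counts of the 5 myosin genes. The excluded fast 2X cells had a median of 54.9% mitochondrial counts, and for comparison with passing cells the mitochondrial counts were left out of the totals. In 8480 genes, 14.5% were lower past the fold in the excluded fast 2X cells than in the passing ones. Of the 6 genes with enough counts 2 were lower, Atp2a1 with a log2 ratio of -1.35 and Pvalb with -0.86. Casq1 had -0.51 and Hrc had -0.35. Atp2a2 and Casq2 were higher past the fold, with 1.25 and 1.25, from 278 and 145 counts in the excluded cells. The share of all genes that were higher was not computed, so these 2 cannot be set against it. Atp2a2 made up 3.56% of the pump counts in the excluded fast 2X cells, compared with 0.605% in the passing ones.

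Between the classes of excluded cells, the mitochondrial share differed too, with 45.3% of the summed counts in the 54 fast 2A and 54.3% in the 309 fast 2X cells, so the same totals without mitochondrial counts were used. Of 1955 genes, 8.24% then passed the fold in either direction, and the median log2 ratio was -0.03. Pvalb was the 1 of 4 genes with enough counts to pass, with 2451 CPM in fast 2A and 3704 CPM in fast 2X, a log2 ratio of -0.60 (limits -0.66 to -0.54), compared with -1.57 in the passing myofibers on such totals. Atp2a1 (-0.18, limits -0.26 to -0.09) and Casq1 (-0.28, limits -0.38 to -0.18) had the same direction as in the passing myofibers and smaller ratios within the fold. Hrc had 0.24 (limits 0.11 to 0.36).

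Sln, with too few counts to enter the tally, had a positive ratio among the excluded cells too, where fast 2A held 14 counts and fast 2X held 32. Its log2 ratio there was 1.19, with limits from 0.17 to 2.13. For Atp2a2 (-0.38, limits -0.89 to 0.09) and Casq2 (-0.28, limits -0.98 to 0.36) the limits included 0. On totals with mitochondrial counts 16.8% of the 1955 genes passed the fold, the median log2 ratio of all genes was 0.23, and Pvalb had -0.34, Atp2a1 0.08, Hrc 0.49 and Sln 1.45. The class of an excluded cell rests on as few as 50 myosin counts.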

How the data were processed

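Collagenase-dissociated myofibers were sorted on a large-particle sorter into plates and sequenced on 2 lanes. These lanes are the 2 samples and hold different cells of the same mouse. The 8 library indexes of the cells were taken as 8 plates. The authors mapped reads to GRCm38 with STAR 2.5.4b, counted UMIs per gene with featureCounts within zUMIs, and deposited 1 table. The deposited values are whole UMI counts, not estimated counts, although the table was declared as the latter because its first rows are cell descriptions. No replicate exists for a class, so no test was run. Class sums were divided by their totals (Python 3.11.15, numpy 2.4.6, scipy 1.17.1). Spearman correlations used CPM per cell. Gene positions came from GENCODE for GRCm38. Alternatives were TMM factors (edgeR 4.0.16), totals without mitochondrial genes, equal weight per cell, other filters and each lane left out. The fold and limits were checked on counts simulated with counting error alone, a check that cannot cover variation between myofibers or lanes. The genes, lists and roles were chosen with earlier results of these data known. Genes outside the 9 were named where they passed the fold in the calcium list or were among the 3 nearest. Mrln, Trdn, Ryr1 and Calm2, overlapping genes and markers were named beyond this rule, after their values were seen. A gene of the calcium list is counted but not reported here by name.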

Additional observations from a re-analysis of the deposited data

How the results depend on the processing

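The 4 main comparisons were Pvalb, both pair ratios and the number of genes past the fold. The setting without quality filters still asked for at least 50 counts of the 5 myosin genes per cell. For Pvalb the log2 ratio was -1.49 with TMM factors, -1.57 without mitochondrial genes in the total, -1.47 as the mean over cells, -1.79 in cells with at least 60% of 1 myosin gene, -1.41 without quality filters, and -1.72 to -1.43 with 1 lane left out. The Atp2a1 to Atp2a2 log2 ratio was -0.60 as the mean over cells, where each cell has equal weight, -2.14 when the cells over 1000 CPM of other cell markers were also left out, and -1.60 without quality filters. It was -2.05 to -1.86 by lane. The Casq1 to Casq2 log2 ratio was -1.17 as the mean over cells, -2.02 when those cells were also left out, -2.08 in cells with at least 60% of 1 myosin gene, -1.49 without quality filters, and -2.18 to -1.47 by lane.

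Alternatives added after the data were seen left out the cells over 1000 CPM of other cell markers (Pvalb -1.63, and -1.52 as the mean over cells, and pumps -2.12), left out the cells with at least 10% Myh7 (Pvalb -1.50, pumps -1.10, calsequestrins -1.50), or used only excluded cells. In excluded cells Pvalb was -0.34, the calsequestrin ratio was -0.0023, and 0 of 4 genes passed the fold, against 16.8% of all 1955 genes. The pump ratio was reversed in sign, at 0.21, from 41 Atp2a2 counts in fast 2A, and its limits were not computed. Atp2a1 (0.083), Atp2a2 (-0.12) and Casq2 (-0.018) were also reversed in sign. Their limits included 0 (-0.0038 to 0.17, -0.63 to 0.35 and -0.72 to 0.62), so no direction was read from them. With totals without mitochondrial genes in these cells Pvalb was -0.60 and was the 1 gene of 4 past the fold, against 8.24% of all genes. Atp2a2 (-0.38) and Casq2 (-0.28) were then reversed in sign, with limits that included 0. The cause was not tested. Pln, with 15 counts in all, was reversed in sign, at -0.13, in cells with at least 60% of 1 myosin gene. The number of genes past the fold of 1.5 was 5, against 9.87% of all genes. It was 2 at a fold of 2, with Pvalb and Atp2a2 past it, against 2.51%. On either lane alone, where fewer had 500 counts, it was 4, against 10.2% on lane 1 and 13.9% on lane 2. Without quality filters it was 4, as Atp2a1 at -0.56 did not pass, against 8.34%. It was 6 with a minimum of 100 counts, against 18.3%, and 7 with at least 1 count in each class, against 37.4%. As the mean over cells Sri was -0.98. Per kilobase of transcript the level of Pvalb was 6.36 times that of Atp2a1, against 1.79 times in CPM. Thinning lowered the shares of cells with a count of Atp2a2, Casq2, Sln, Sri and Pln, so depth limits these shares. No paired analysis was possible because the lanes hold different cells of 1 mouse and no test was run.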
